A study of Mus musculus with 3 samples.

Results

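Heterotrimeric G proteins and the RGS proteins that switch them off were examined in micro-dissected dentate gyrus, the hippocampal subregion whose principal cells are the granule cells. Messenger RNA came from adult male C57BL/6 mice aged 8 to 10 weeks, with no treatment named, and 3 libraries described as biological replicates formed the single wild-type group. Members were taken by gene symbol alone, as the G protein alpha, beta and gamma subunit genes and the numbered Rgs genes, which gave 54 of the 33101 gene names with a value. These were 16 alpha, 5 beta and 12 gamma subunit genes and 21 Rgs genes, each with 1 entry in the table. Each gene has a single level, shared by the libraries, in FPKM: fragments counted per length of transcript and per number of mapped fragments, so genes can be compared per length. No replicate error can be attached to any value, no test was possible, and the depth behind the values is unknown.

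A heterotrimeric G protein carries a signal from a receptor in the plasma membrane to enzymes and channels inside the cell. The receptor makes the alpha subunit exchange GDP for GTP, alpha and the beta-gamma pair then act on their targets, and the signal ends when alpha hydrolyses its GTP. RGS proteins speed up that hydrolysis. In hippocampal neurons this pathway serves the metabotropic receptors for glutamate, GABA, monoamines, acetylcholine, adenosine and neuropeptides.

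The granule cell markers Prox1, C1ql2, C1ql3, Calb1 and Dsp stood between 43.3 and 111 FPKM, so the labelled tissue carried its defining transcripts. Other cells were represented too. The median of 5 markers was 94.4 FPKM for astrocytes, 47.4 FPKM for oligodendrocytes, 34.1 FPKM for microglia, 11.5 FPKM for interneurons and 2.02 FPKM for endothelial cells and pericytes. In such bulk tissue, fewer cells of a type and less RNA per cell cannot be told apart.

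Of the 54 members, 42 (77.8%) reached 1 FPKM, against 56.4% of 20135 protein-coding names and 39.6% of all names. At 10 FPKM or more there were 28 members, or 51.9%, against 30.8% of protein-coding names and 21.1% of all names. At 100 FPKM or more there were 5 members, or 9.26%, against 2.63% of protein-coding names and 2.08% of all names. The members' median was 10.2 FPKM, and that of protein-coding names was 2.46 FPKM. The values left a gap: Gna15 was the lowest member above 1 FPKM, at 1.11 FPKM, and the next below it was Rgs13 at 0.135 FPKM. That gap is bounded by the members' own values, so no member could lie inside it. Of protein-coding names, 9.89% did. The 12 members under 1 FPKM were Gnat1, Gnat2, Gnat3, Gna14, Gnb3, Gng8, Gngt1, Rgs1, Rgs13, Rgs18, Rgs21 and Rgs22, of which Gnat3, Gnb3, Gngt1 and Rgs21 were listed at 0.

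**Figure D1:**
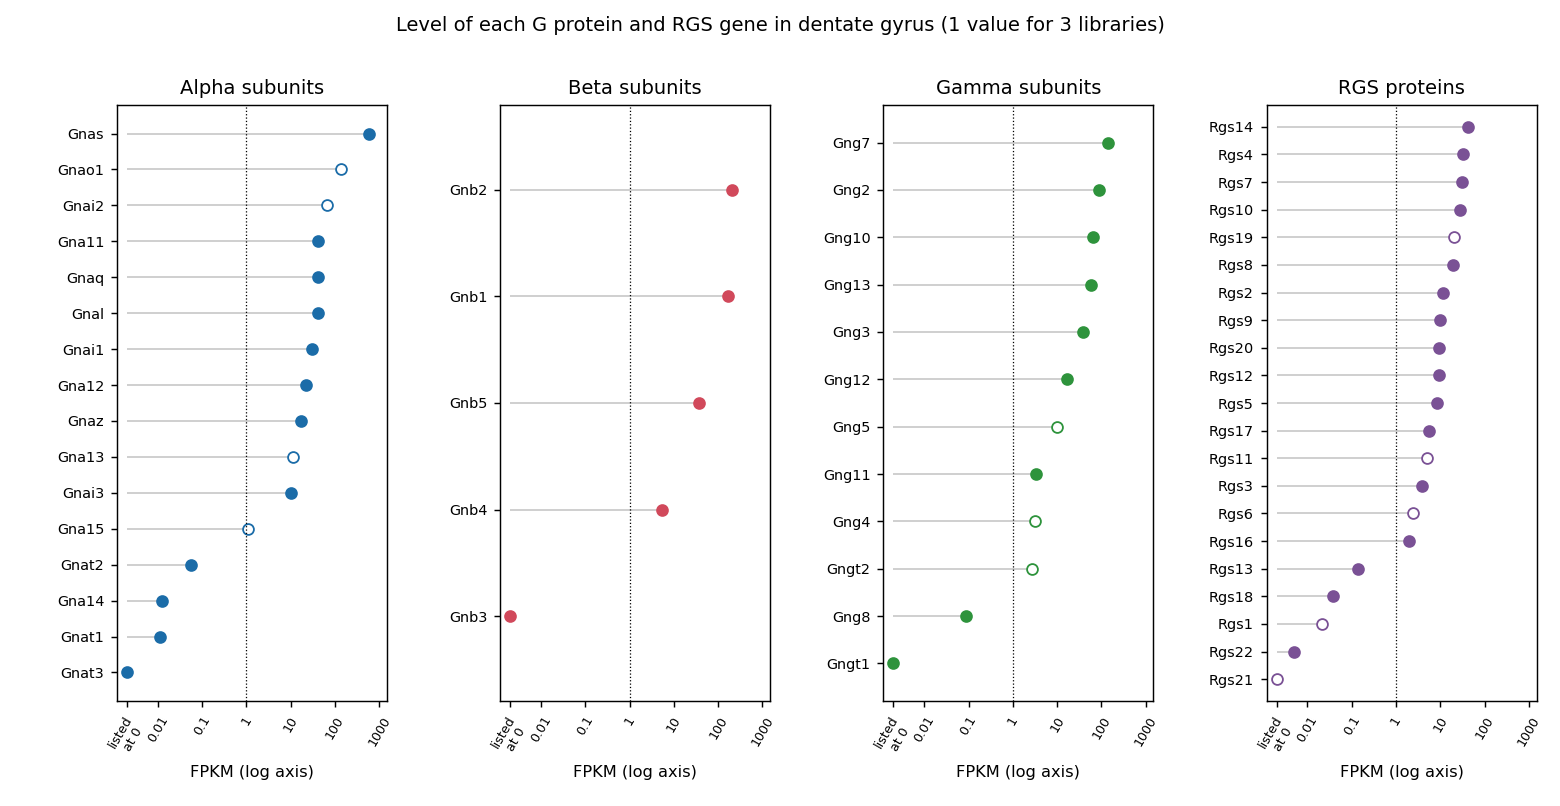
FPKM of each member on a log axis, 1 panel per family, sorted by level, with members listed at 0 at the left edge and a dotted line at 1 FPKM. Open circles mark the 12 genes whose listed transcript is noncoding, short or not found in GENCODE M21, and 12 members in all lie left of the dotted line.

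The alpha subunits decide which pathway a G protein serves. Gnas, whose main product stimulates adenylyl cyclase, was the highest member of all at 598 FPKM, at rank 45 among all names. Gnal encodes a close relative of that subunit, known for odour transduction and striatal dopamine signalling, and stood at 41.6 FPKM. The Gnal span overlaps Chmp1b on the same strand, at 9.10 FPKM, and Mppe1 on the opposite strand, at 2.48 FPKM. How reads were divided between Gnal and these names was not tested. The ratio of Gnas to Gnal was 14.4. The striatal markers Drd1a and Adora2a were at 2.23 and 0.533 FPKM, while Ppp1r1b and Penk, which neurons elsewhere also express, were at 27.4 and 20.3 FPKM. Their part in the Gnal level was not tested.

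The Gnas value carries a limit of its own. The locus makes several coding forms from separate start sites, among them the neuroendocrine secretory protein and the extra-large form, which share downstream exons with the stimulatory alpha subunit. In GENCODE M21 it has 16 coding forms, and the transcript listed in the table begins at the most upstream start, with a coding length of 759 nt. The forms that begin 43448 or more bases downstream include those with a coding length of 1182 nt. The listed form is not one of these. It counts as a full coding form here only by its length of 2465 nt, against 3947 nt for the longest. On mm9, the listed entry runs from 174109821 to 174172245 on chromosome 2. How the 598 FPKM divides among these forms cannot be told from 1 value.

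Alpha subunits of the inhibitory class lower cyclic AMP and release beta-gamma pairs that act on potassium and calcium channels. Gnao1, the form long known as the abundant alpha subunit of brain, led this class at 135 FPKM. Gnai2 followed at 66.8 FPKM, Gnai1 at 29.8 FPKM and Gnai3 at 10.3 FPKM. Gnaz, which encodes an inhibitory subunit that pertussis toxin does not modify, was at 17.3 FPKM. Gnao1 thus stood 2.02 times above Gnai2 and 4.53 times above Gnai1, and Gnai2 stood 6.50 times above Gnai3. The listed transcript of Gnao1 is a coding form of 741 nt, against 5526 nt for the longest, so its level per length is less certain than those of Gnai1 and Gnai3, whose listed forms are the longest. Together Gnao1 and Gnai2 made up 77.8% of the summed FPKM of the 8 genes of this class.

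The transducins and gustducin belong to the same class but serve sensory cells. Gnat1 of rods was at 0.0112 FPKM, Gnat2 of cones at 0.0570 FPKM, and Gnat3 of taste cells was listed at 0. The photoreceptor and taste markers Pde6b, Pde6a, Trpm5 and Tas1r3 lay between 0 and 0.188 FPKM.

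Gnaq and Gna11 encode the subunits that activate phospholipase C beta, and their levels nearly coincided at 41.9 and 42.4 FPKM, a ratio of 0.987. Their relatives were far lower. Gna14 was at 0.0124 FPKM, and Gna15, a subunit typical of blood cells, was at 1.11 FPKM with a retained-intron form as its listed transcript. Within the Gnaq span, the table also has the opposite-strand names Gm10819 at 174 FPKM and E030024N20Rik at 23.3 FPKM. Whether any of their reads came from Gnaq was not tested. Of the subunits of the G12 class, which act on the cytoskeleton through exchange factors of small GTPases, Gna13 was at 11.4 FPKM and Gna12 at 22.5 FPKM, a ratio of 0.506. The listed form of Gna13 is a short coding one of 914 nt.

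Summed by class, the stimulatory genes came to 640 FPKM, the inhibitory ones to 259 FPKM, the Gq class to 85.5 FPKM and the G12 class to 33.9 FPKM. Gnas alone was 58.7% of the summed alpha FPKM. Since its value cannot be divided among its forms, the share of the stimulatory sum that belongs to the stimulatory subunit is unknown. The place of that class above the others is therefore not settled. All 4 classes had at least 2 genes at 10 FPKM or more.

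Beta subunits form a tight pair with gamma. Gnb2 was at 209 FPKM and Gnb1 at 172 FPKM, a ratio of Gnb1 to Gnb2 of 0.822, and these general-purpose subunits made up 90.0% of the summed beta FPKM. Gnb5, the divergent beta subunit that binds RGS proteins of the R7 subfamily in place of a gamma subunit, was at 36.8 FPKM. Gnb4 was at 5.46 FPKM, and Gnb3, the beta subunit of cones, was listed at 0. The symbol Gnb2l1, at 202 FPKM, does not belong here by the rule: it encodes the ribosomal scaffold RACK1.

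Gamma subunits anchor the pair to the membrane through a lipid tail. Gng7, known for its partnership with the Gnal product in striatum, was the highest at 141 FPKM, and Gng2 was at 90.9 FPKM, a ratio of Gng7 to Gng2 of 1.55. Gng10 was at 65.3 FPKM and Gng13, best known from taste, olfactory and retinal cells, at 58.6 FPKM. These 4 genes carried 82.4% of the summed gamma FPKM. Gng3, a subunit of neurons, was at 39.3 FPKM, and the widely expressed Gng12 and Gng5 were at 17.0 and 10.2 FPKM. A lower tier held Gng11 at 3.43 FPKM, Gng4 at 3.20 FPKM and Gngt2 at 2.71 FPKM. Gngt2 shares its symbol stem with Gngt1 but, unlike it, stood above 1 FPKM. Its listed form is a short coding one of 498 nt, against 1587 nt for the longest. It also overlaps Abi3, at 3.30 FPKM on the other strand, so its level is uncertain. Gng8, a subunit of olfactory and vomeronasal neurons, was at 0.0898 FPKM, a ratio of Gng13 to Gng8 of 653, or 54.7 with 1 FPKM added to both, and the rod subunit Gngt1 was listed at 0.

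Several gamma genes share sequence with other transcripts, so the division of reads is uncertain. Of all 50-base windows of the Gng10 transcript, 78.9% also occur in Gm20503, and 46.4% of those of Gng13 in Chtf18, a neighbour on the other strand at 0.708 FPKM. For Gng3, 21.9% occur in Bscl2, which overlaps it on the other strand and stood at 32.2 FPKM. For Gng2, 22.7% occur in other genes, among them the pseudogene Gng2-ps1, listed at 14.6 FPKM. By contrast, Gng7, Gng8, Gng11 and Gng4 had no shared window, nor had Gnb1, Gnb3 or Gnb4. For Gng4 this covers only the listed noncoding form of 206 nt, against 3179 nt for the longest coding form.

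The summed beta and gamma levels lay close together, at 423 FPKM for beta and 432 FPKM for gamma. Alpha summed to 1019 FPKM with Gnas and to 420 FPKM without it. The ratio of gamma to beta was 1.02, and that of alpha without Gnas to beta was 0.993. The second ratio rests on Gnao1 and Gnai2: with only members whose listed transcript is a full coding form it was 0.487. The ratio of gamma to beta lay on the other side of 1 in both settings tried, at 0.983 with full coding forms only and at 0.652 without Gng10 and Gng2, so neither family can be called the higher. With no replicate values, it cannot be said how closely these sums agree.

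**Figure D2:**
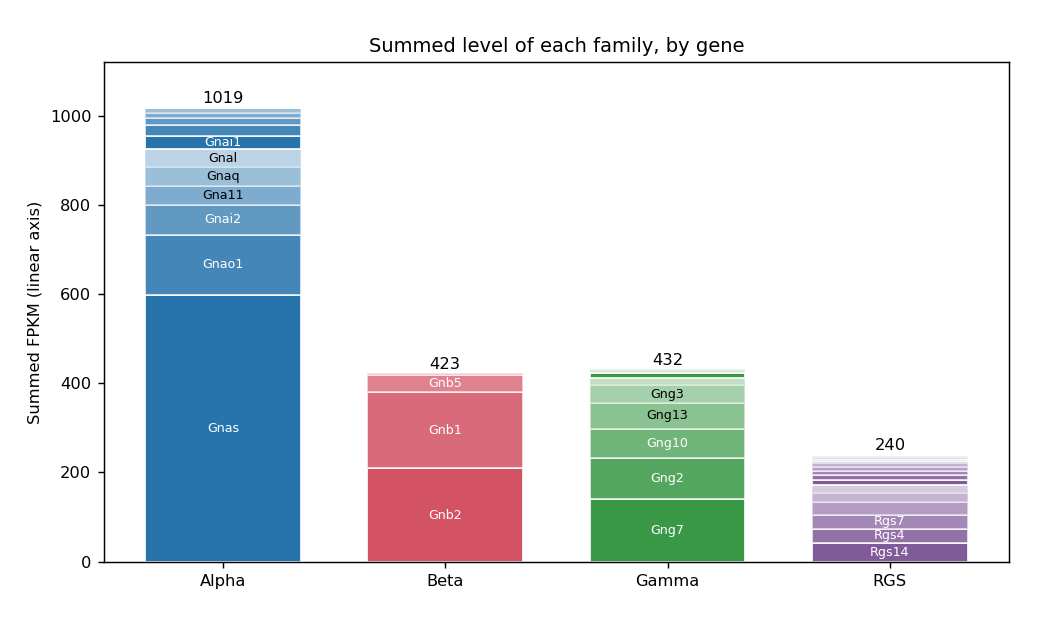
Summed FPKM of each family on a linear axis, with 1 segment per gene and the sum above each bar; genes above 28 FPKM are named. Beta and gamma reach 423 and 432 FPKM, and Gnas alone fills 598 of the 1019 FPKM of alpha.

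RGS genes had a median of 8.22 FPKM over 21 genes, below that of the 33 subunit genes, 17.3 FPKM. Of the 21, 16 (76.2%) reached 1 FPKM, against 56.4% of protein-coding names, and 7 (33.3%) reached 10 FPKM, near the 30.8% of protein-coding names. None reached 100 FPKM, which 2.63% of protein-coding names did. The summed level of the subunit genes, Gnas included, was 7.82 times that of the RGS genes, 240 FPKM. Gnas alone was 598 of the 1874 FPKM of the subunit genes, and its value cannot be divided among its forms. The size of that ratio is therefore uncertain. The 5 highest RGS genes, from 4 subfamilies, made up 64.0% of the RGS sum, and the 6th, Rgs8, was close behind the 5th.

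In the R12 subfamily, Rgs14 was the highest RGS gene at 41.5 FPKM. Its protein also binds inactive alpha subunits through a GoLoco motif and is known from CA2 neurons, where it limits synaptic plasticity. The genes listed as CA2 markers, Pcp4, Necab2, Amigo2, Cacng5 and Map3k15, were at 341, 41.1, 8.48, 7.37 and 0.378 FPKM. Their median was 8.48 FPKM, and values this far apart give no single CA2 level. The part of these markers in the Rgs14 level was not tested. Rgs10, a small RGS protein abundant in microglia and also present in neurons, was at 27.6 FPKM, so that Rgs14 exceeded it 1.50-fold. The microglial markers C1qa, C1qb, Csf1r, Cx3cr1 and P2ry12 ran from 10.9 to 38.9 FPKM, and their part in the Rgs10 level was not tested. Rgs12, a large protein that holds a GoLoco motif as well, was at 9.15 FPKM, a ratio to Rgs14 of 0.221.

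R7 proteins are stable only as partners of the Gnb5 product. Rgs7 was at 31.4 FPKM, Rgs9, known from retina and striatum, at 9.87 FPKM, Rgs11 at 5.04 FPKM and Rgs6 at 2.41 FPKM. The listed transcript of Rgs11 is a noncoding form and that of Rgs6 a short one. Rgs7 exceeded Rgs6 by 13.0-fold and Rgs9 exceeded Rgs11 by 1.96-fold. The sum of these 4 genes was 48.8 FPKM, 1.32 times Gnb5, and the ratio of Rgs7 alone to Gnb5 was 0.854. Of the membrane anchors for this complex, Rgs7bp was at 40.0 FPKM and the orphan receptor gene Gpr158 at 13.7 FPKM, whereas the retinal anchors Gpr179 and Rgs9bp were at 0.0706 and 0.0234 FPKM.

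The R4 subfamily holds the small RGS proteins and had the widest spread. Rgs4, a regulator of inhibitory and Gq signals in forebrain neurons, was at 32.6 FPKM, and Rgs8, best known from Purkinje cells, was at 19.5 FPKM. Rgs2, an activity-induced gene whose product favours Gq, was at 11.3 FPKM, so that Rgs4 exceeded it 2.88-fold. Rgs5, known from pericytes, was at 8.22 FPKM, above the pericyte markers Pdgfrb, Kcnj8 and Abcc9 at 3.65, 0.906 and 0.0285 FPKM. The part of pericytes in the Rgs5 level was not tested. Rgs3 was at 3.82 FPKM and Rgs16 at 1.93 FPKM. The blood cell genes Rgs13, Rgs18 and Rgs1 were at 0.135, 0.0372 and 0.0215 FPKM, and Rgs21 was listed at 0.

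RZ proteins include regulators of the Gnaz product. Rgs19 was at 20.2 FPKM, Rgs20 at 9.35 FPKM and Rgs17 at 5.43 FPKM. The ratio of Rgs17 to Rgs20 was 0.581 and that of Rgs19 to Rgs17 was 3.73. The listed form of Rgs19 is a short coding one of 424 nt, so its place above the others is uncertain. Rgs22, which belongs to none of these subfamilies, was at 0.00501 FPKM.

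Many of these genes stand in groups on a chromosome. By their mm9 spans, 12 pairs of neighbouring members of the same family lay within 500 kb of each other, and 11 of these had no other protein-coding name between them. In 6 of the 12 pairs, 1 gene reached 1 FPKM and the other did not. In 3 pairs both did, and in 3 neither did. Of protein-coding names at large, 56.4% reached 1 FPKM, and their neighbouring pairs were not counted. The split within pairs therefore cannot be called a trait of these families. The inhibitory alpha genes form 3 of the pairs, each with a sensory relative beside it: Gnai2 at 66.8 FPKM lay 39.2 kb from Gnat1 at 0.0112 FPKM, Gnai3 at 10.3 FPKM lay 5.85 kb from Gnat2 at 0.0570 FPKM, and Gnai1 at 29.8 FPKM lay 245 kb from Gnat3, listed at 0. In the Gq class, Gnaq at 41.9 FPKM lay 48.2 kb from Gna14 at 0.0124 FPKM, and Gna11 at 42.4 FPKM lay 20.6 kb from Gna15 at 1.11 FPKM. The ratio of Gna11 to Gna15 was 38.1, that of Gnai3 to Gnat2 was 180, and those of Gnaq to Gna14 and of Gnai2 to Gnat1 were 3377 and 5969. Ratios against values this low are imprecise, and with 1 FPKM added to both genes these 4 ratios were 20.6, 10.7, 42.4 and 67.0.

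Among gamma genes, Gng11 at 3.43 FPKM lay 6.51 kb from Gngt1, listed at 0. Chromosome 1 carried the RGS pairs. Rgs4 and Rgs5, 45.7 kb apart and transcribed towards each other, were both expressed, with a ratio of Rgs4 to Rgs5 of 3.97. Rgs8 and Rgs16, 42.7 kb apart on the same strand, were at 19.5 and 1.93 FPKM, a ratio of 10.1. In a row of 5 R4 genes on the same strand, Rgs2 at 11.3 FPKM was followed by Rgs13, Rgs1, Rgs21 and Rgs18, all at 0.135 FPKM or less. Rgs2 thus stood 83.7 times above its neighbour Rgs13.

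**Figure D3:**
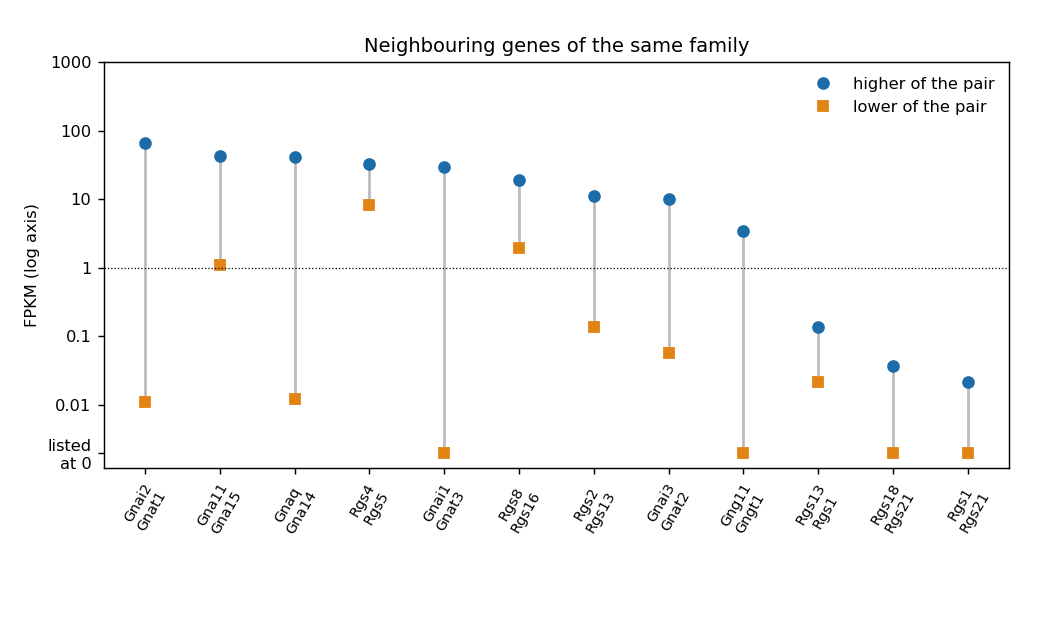
FPKM of the 12 neighbouring pairs of the same family on a log axis, with the higher gene as a circle and the lower as a square; squares or circles at the bottom edge were listed at 0. In 6 pairs the circle lies above the dotted line at 1 FPKM and the square below it.

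Promoter sequence was set beside these levels, since the study as a whole concerned DNA methylation and the CpG dinucleotide is its main target in mammals. RefSeq promoter windows on GRCm38.p6 were found for 40 of the 54 members, 53 windows in all, and the 250 bases before each start site were used. The windows of the Gq class genes are shown because both genes of both neighbouring pairs have one and are printed 5′ to 3′ on the gene's strand, with every CpG in capitals. That of Gnaq is at chr19:16132434-16132683 on the plus strand, that of Gna14 at chr19:16435417-16435666 on the plus strand, that of Gna11 at chr10:81545163-81545412 on the minus strand and that of Gna15 at chr10:81524226-81524475 on the minus strand.
Gnaq: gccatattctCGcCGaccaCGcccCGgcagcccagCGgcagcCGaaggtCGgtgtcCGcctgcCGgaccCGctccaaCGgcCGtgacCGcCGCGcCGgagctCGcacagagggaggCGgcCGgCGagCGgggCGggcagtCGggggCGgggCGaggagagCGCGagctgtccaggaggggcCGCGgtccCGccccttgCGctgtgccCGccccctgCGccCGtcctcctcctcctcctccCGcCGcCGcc
Gna14: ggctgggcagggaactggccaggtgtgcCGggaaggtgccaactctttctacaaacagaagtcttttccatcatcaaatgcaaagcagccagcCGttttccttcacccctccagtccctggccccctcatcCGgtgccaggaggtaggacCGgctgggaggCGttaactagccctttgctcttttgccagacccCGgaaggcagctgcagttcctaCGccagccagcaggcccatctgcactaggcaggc
Gna11: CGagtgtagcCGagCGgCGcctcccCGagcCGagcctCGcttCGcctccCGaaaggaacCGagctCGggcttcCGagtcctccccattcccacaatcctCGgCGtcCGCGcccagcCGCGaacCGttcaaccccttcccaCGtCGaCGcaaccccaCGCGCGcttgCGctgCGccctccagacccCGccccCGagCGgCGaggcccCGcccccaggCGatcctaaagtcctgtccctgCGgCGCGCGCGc
Gna15: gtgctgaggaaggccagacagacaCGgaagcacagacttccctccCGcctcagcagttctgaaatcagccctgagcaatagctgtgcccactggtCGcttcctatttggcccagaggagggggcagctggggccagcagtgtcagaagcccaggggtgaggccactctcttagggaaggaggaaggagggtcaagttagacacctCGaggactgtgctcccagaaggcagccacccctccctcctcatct

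The Gnaq window held 37 CpG and the Gna14 window 7, and the Gna11 window held 38 against 4 for Gna15. The 2 higher genes of these pairs have closely spaced CpG over most of the window, and the lower ones a few scattered sites. Of the 7 neighbouring pairs with windows for both genes, the higher gene had more CpG in 6, taking for each gene the window with the most. Neighbouring pairs of protein-coding names at large were not counted, so this cannot be called a trait of these families. Gnai3 had 18 CpG and Gnat2 had 5, Gnai1 had 43 and Gnat3 had 2, Rgs2 had 30 and Rgs13 had 0, and Rgs4 had 13 and Rgs5 had 4. Rgs8 and Rgs16 ran the other way, with 9 CpG for Rgs8 at 19.5 FPKM and 17 for Rgs16 at 1.93 FPKM.

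Over all members with a window, taking for each gene the window with the most CpG, the median was 20 CpG in the 33 members at 1 FPKM or more (range 2 to 44) and 4 in the 7 members below 1 FPKM (range 0 to 7). Protein-coding names showed a like split, with a median of 18 in 8146 names at 1 FPKM or more and 4 in 5924 names below, so the G protein and RGS genes followed the split seen among protein-coding names at large. Some well expressed members had few CpG. Gng3 had 2, Gng2 and Gnb5 had 3 each and Rgs5 had 4, at 39.3, 90.9, 36.8 and 8.22 FPKM. Low CpG number therefore went with both high and low levels. No member below 1 FPKM had more than 7 CpG, but only 7 of the 12 such members have a window. Among protein-coding names below 1 FPKM the number reached 49, so no limit on CpG number can be drawn from these 7. Methylation itself was not analysed here.

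**Figure D4:**
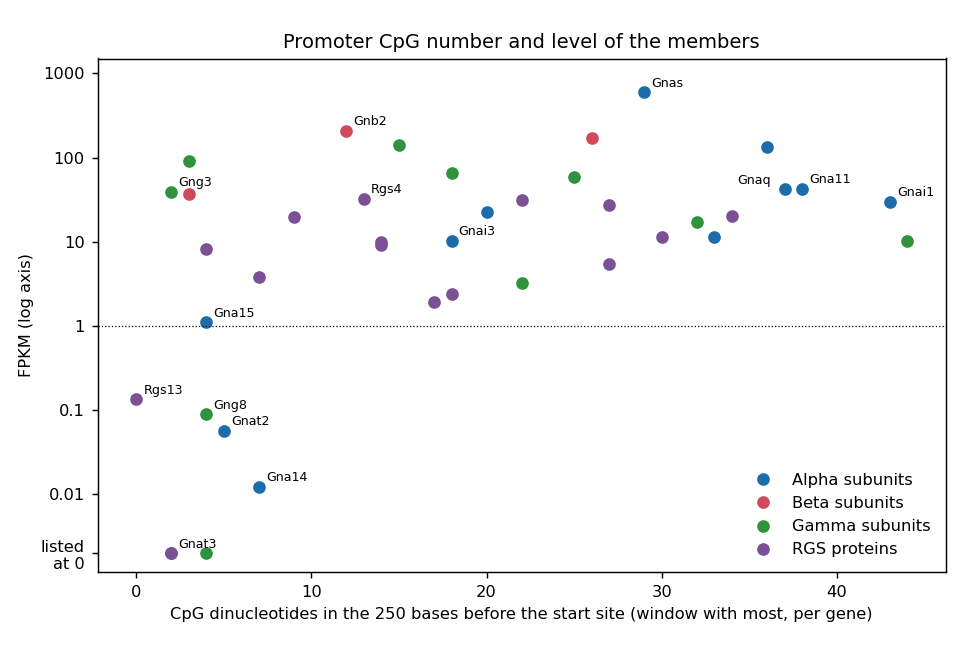
Number of CpG in the 250 bases before the start site (x axis) against FPKM on a log axis (y axis) for the 40 members with a promoter window, coloured by family. All 7 members below the dotted line at 1 FPKM have 7 CpG or fewer; Gnat3 and Rgs21 coincide at 2 CpG, listed at 0.

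Short motifs were counted in the same windows on both strands. The GC box GGGCGG occurred in 22 of the 40 members, in 20 of the 33 at 1 FPKM or more (60.6%) and in 1 of the 7 below it (14.3%) when the window with the most CpG was used, against 63.7% and 27.3% of protein-coding names. The letters GGGCGG contain a CpG, so this count is not independent of the CpG number. TATAAA occurred in 9 of the 53 windows (17.0%), against 12.4% of all 32851 windows. These 9 belong to only 6 members, Gnas, Gnb5, Gngt1, Rgs3, Rgs4 and Rgs9. Gnas and Rgs3 are counted more than once, so the 2 shares of windows are not shares of genes. In the windows with the most CpG it occurred in 4 of 33 members at 1 FPKM or more (12.1%) and in 1 of 7 below (14.3%), against 5.11% and 18.5% of protein-coding names. The full cyclic AMP response element TGACGTCA occurred in none of the 53 windows and in 1.55% of all windows. A match or its absence in these windows says nothing of whether a factor binds.

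The other genes of the pathway gave the setting of these levels. Over 10 lists of 65 genes, 47 (72.3%) reached 1 FPKM, against 56.4% of protein-coding names, and 33 (50.8%) reached 10 FPKM, against 30.8%. Their median was 11.0 FPKM, near the 10.2 FPKM of the members. The lists were chosen with earlier results of these data known, so these shares are a description only. The counts for single lists rest on 3 to 10 genes each and are given as a description too. Effectors of the alpha subunits were uneven. Among adenylyl cyclases, 6 of 9 reached 1 FPKM, led by the calmodulin-stimulated Adcy1 at 194 FPKM and Adcy2 at 32.8 FPKM, with Adcy7 listed at 0. Among phospholipase C beta genes, 3 of 4 did, with Plcb1 at 35.9 FPKM, Plcb3 at 4.36 FPKM and Plcb2 lowest at 0.605 FPKM. All 3 exchange factors with an RGS-like domain, which the G12 class acts on, reached 10 FPKM, with Arhgef12 at 28.7 FPKM, Arhgef11 at 14.3 FPKM and Arhgef1 at 13.5 FPKM.

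Targets of beta-gamma included the potassium channel genes Kcnj3 at 38.7 FPKM, Kcnj9 at 27.8 FPKM and Kcnj5, the cardiac form, at 0.303 FPKM, and 3 of 4 reached 1 FPKM. In a mixed list of other targets and partners, 5 of 9 (55.6%) did, near the background share, with the exchange factor gene Kalrn at 162 FPKM, Gprin1, which encodes a partner of the Gnao1 product, at 72.9 FPKM and Gprin2 lowest at 0.0215 FPKM. Receptor kinases and arrestins end signalling at the receptor, and 7 of 10 reached 1 FPKM, with Adrbk1 at 70.3 FPKM, the arrestin gene Arrb2 at 49.1 FPKM and the cone arrestin Arr3 listed at 0. The listed transcripts of Adrbk1, Arrb2 and Arhgef11 are retained-intron forms.

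Of 10 genes for alpha exchange factors, GoLoco proteins and related small GTPases, 9 reached 1 FPKM. Rap1gap was highest at 65.1 FPKM, the chaperone and exchange factor gene Ric8 was at 30.9 FPKM, and Pcp2, a Purkinje cell gene, was lowest at 0.0168 FPKM. Rap1gap and Pcp2 have noncoding listed transcripts. The folding factors of beta-gamma pairs held the chaperonin genes Tcp1 at 106 FPKM and Cct2 at 77.1 FPKM, with 4 of 6 at 1 FPKM or more and Pdc and Pdcl2 listed at 0. The listed transcript of Tcp1 is a noncoding form of 329 nt, against 2446 nt for its longest coding form. Of the 6 other genes with an RGS domain, 5 reached 1 FPKM, with the sorting nexin genes Snx25 at 19.0 FPKM and Snx14 at 15.2 FPKM and the Wnt pathway scaffold Axin1 listed at 0.

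**Figure D5:**
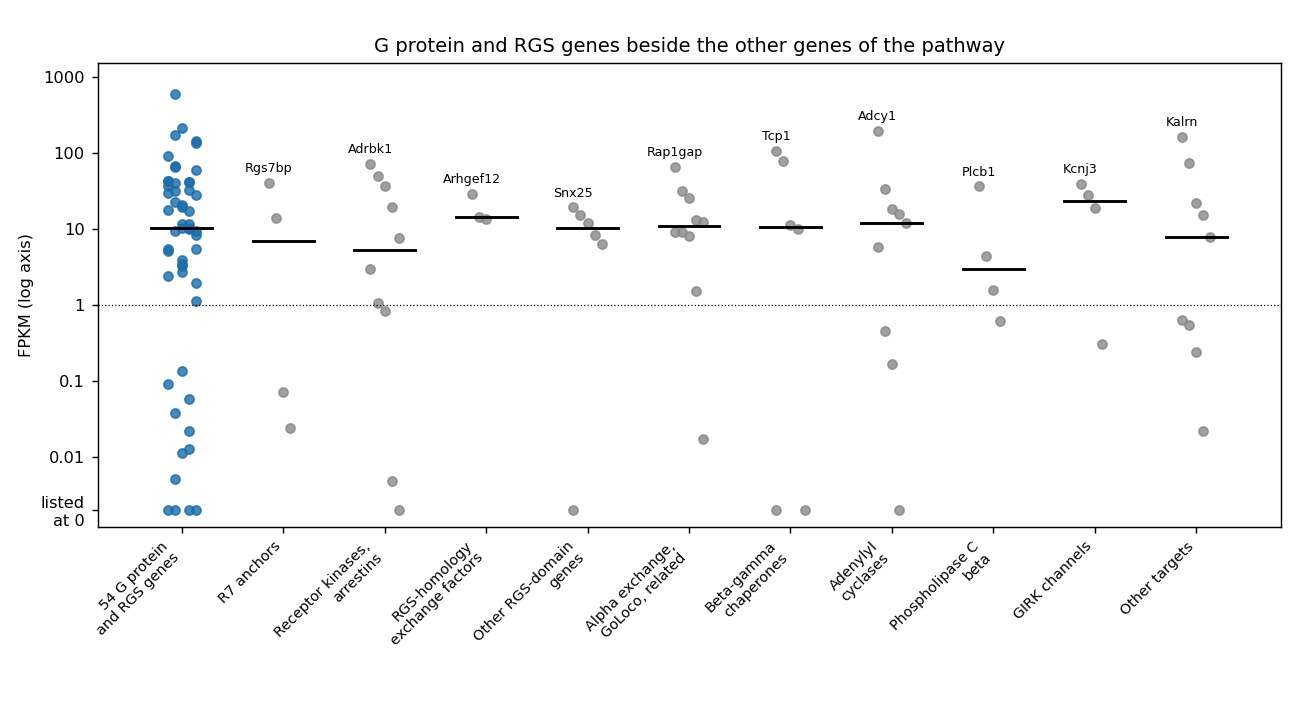
FPKM on a log axis for the 54 members (blue, left) and for the genes of 10 other lists of the pathway (grey), with a black bar at each median, the highest gene of each list named and genes listed at 0 at the bottom edge. The members' median of 10.2 FPKM lies within the range of list medians, 2.96 to 23.1 FPKM.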

How the data were processed

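Dentate gyri were micro-dissected, poly(A) RNA was selected and randomly primed cDNA was sequenced on an Illumina HiSeq2000 instrument, per the labels' protocols. TopHat, Cufflinks and the builds mm9 and NCBIM37 are named in the submitters' processing notes; their versions, the read length, the strand setting and any pooling or averaging of the 3 libraries: not given in the sources used here. No strand-marking step is described. If none was used, the reads of a gene and its antisense partner cannot be separated.

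The values are FPKM as deposited by the authors, 1 column for the group, with 36469 of 37681 entries filled. No values per library were used, so no p-value, SD or interval is given, and the depth is unknown. Cufflinks can write 0 for a failed estimate, hence "listed at 0". Whether a value is that of the whole gene or of its listed transcript was not settled.

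The members, gene lists and pairs were chosen with earlier results of these data known. Every member may be named; of other lists the 2 highest and the lowest are, the other names having been chosen after their values were seen; some listed markers are not reported here. Rows that share a symbol were summed, which touched no member. Medians were also taken on the log2(FPKM + 0.1) scale. Transcript types and lengths came from GENCODE M21 by identifier: 42 of 54 listed transcripts were coding and at least 0.5 of the longest coding form, 6 were shorter, 4 were noncoding and 2 were not found. A 50-base window counted as shared where its letters, on either strand, occur in a transcript of another gene; reads of other lengths would give other shares. Promoters came from RefSeq on GRCm38.p6, by symbol. Neighbours used the table's mm9 spans, written 1-based. Counting steps were tested on simulated data. Alternatives changed the pseudocount, the minimum level, the list summary, the members kept, the ratio scale and the neighbour distance. Work used Python 3.11.15, pandas 2.3.3, numpy 2.4.6 and matplotlib 3.10.9.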

Additional observations from a re-analysis of the deposited data

How the results depend on the processing

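No paired analysis was possible because the table holds 1 value per gene for a single group, and leaving out each library was not run for the same reason. A value is said to have moved when it changed by more than 1.5-fold, or by the same amount on the log2 scale, since no replicate spread exists. Of 70 alternative values of the medians, counts, sums and neighbour pairs, 56 stayed within that limit on the same side, the counts at 1 FPKM or more and the neighbour counts among them. Many of the 56 could not have moved. Each member has 1 entry, so the settings for shared symbols alter nothing. Leaving out members listed at 0 cannot alter a count at 1 FPKM or more. Leaving out Gng10 and Gng2 cannot alter the ratios of alpha to beta. At 100 kb the neighbour counts fell from 12 to 8 and from 6 to 4, exactly at the limit. The ratio of the gamma to the beta sum, 1.02, turned in both settings tried, to 0.983 with full coding forms only and to 0.652 without Gng10 and Gng2. The median of log2(FPKM + 0.1) was 3.37 over all members, 4.31 for alpha, 5.21 for beta, 3.73 for gamma and 3.06 for RGS genes. As means of the log2 values these were 2.66, 2.93, 3.90, 3.14 and 1.89. With only names at 0.1 FPKM or more, the medians were 4.29 over all members, 5.14 for alpha, 6.32 for beta and 4.70 for gamma. Leaving out members listed at 0 also gave 6.32 for beta, and leaving out noncoding or short listed forms gave 5.30 for gamma. The minimum level and the removal of genes listed at 0 take out low genes by their construction. For the other moves the cause was not tested. The ratio of the alpha sum without Gnas to the beta sum was 0.487 with full coding forms only. The settings for these sums were chosen after seeing the data.

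Of 27 gene ratios, 22 stayed within 1.5-fold with 1 FPKM added, and the 5 that moved involve a gene near or under 1 FPKM. Multiplying FPKM by the listed transcript length gives relative fragment numbers, not levels. On that scale 6 of 24 ratios stayed within the limit and 13 moved without turning, for example to 1.07 for Gnao1 to Gnai1, 4.02 for Rgs14 to Rgs10 and 12.1 for Gnb1 to Gnb5. The other 5 turned, to 1.63 for Gnaq to Gna11, 1.36 for Gnb1 to Gnb2, 1.02 for Rgs7 to Gnb5, 2.24 for Rgs17 to Rgs20 and 0.193 for Rgs19 to Rgs17. Where listed transcripts are not the expressed ones, levels per length carry the same uncertainty, and the size of it was not tested.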

Other observations

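Sequence shared between genes was examined for all 54 members. In 30 of them no 50-base window of the transcript occurs in another gene, and in 11 more than 10% of windows do. Among the leading matches of each member, none was another member, so similarity within the family did not extend to shared 50-base windows there. Gnas had the highest share at 83.7%, with the names Gm20721 and Nespas at its own locus, followed by Gng10. Gng5 shared 30.1% of windows with other genes, among them the name Gng5-ps. In the table's mm9 spans, 23 members overlap another name, and 4 of them overlap one at 1 FPKM or more.

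Of names that resemble the members but fall outside the rule, Gnb1l was at 0.311 FPKM and Rgsl1 was listed at 0.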
